A study of Mus musculus with 16 samples.

Results

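Annexins are a family of proteins that bind membranes containing acidic phospholipids when calcium rises. Each pairs a conserved core of annexin repeats with an amino-terminal tail of its own, and the tail sets which partners it meets, such as the small calcium-binding S100 proteins. They are known for roles in membrane repair, vesicle traffic and the damping of inflammation, and the gut epithelium expresses several of them. The annexin transcripts described here are those of 10 genes picked by symbol, Anxa1, Anxa2, Anxa3, Anxa4, Anxa5, Anxa6, Anxa8, Anxa10, Anxa11 and Anxa13, of 21484 genes listed at either day. All 10 were listed at both days and all passed the filter on low counts in every comparison. The family was picked with the 4OHT against DMSO results of both days already known, so its values in those comparisons are given as a description and without p-values.

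The samples were epithelial organoids, small closed cultures of gut epithelium, grown from the jejunum of C57BL/6 mice with the genotype Villin-CreERT2; Hnf4aflox/flox. All groups carry this genotype, in which the Villin promoter drives a tamoxifen-activated recombinase in gut epithelial cells and both Hnf4a alleles can be deleted. The groups 4OHT day 2 and 4OHT day 4 received 0.5 µM hydroxytamoxifen (4OHT) for 24 h, and DMSO day 2 and DMSO day 4 received the solvent. Each of these 4 groups has 4 libraries of poly(A) RNA. The labels do not say whether replicates came from separate mice or cultures, so a p-value speaks only of the variation among the libraries at hand, and this variation may be technical.

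Library totals ran from 63791712 to 93322956 counts. Hnf4a, the nuclear receptor gene that the treatment deletes, measured 979 to 1046 CPM (a read count relative to its library's total, with TMM scaling over all 16 libraries) in DMSO day 2 and 482 to 532 in 4OHT day 2. At day 4 it measured 956 to 983 CPM in DMSO and 454 to 490.3 in 4OHT, so the groups did not overlap on either day. The first principal component separated the days and the second the treatments. Within each day the treatments also lay apart on the first. On the second, 4OHT day 4 replicate 4 lay at 30.2 against 10.1 to 19.7 for the other libraries of its group. All 12 markers of intestinal epithelium, among them Epcam, Vil1 and Cdx2, were above 1 CPM in some library of every group. Of 9 stromal markers 7 stayed under 1 CPM in every library, Col1a1, Pdgfra and Dcn among them, and so did 8 of 10 immune and endothelial markers, Ptprc and Pecam1 among them.

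Levels of different genes were compared per length, as CPM per kb of summed exon. In every group the order began with Anxa13, Anxa4 and Anxa2, and no library of any of these overlapped with the next gene in the order. Anxa13, an intestinal annexin anchored to membranes by a fatty acid, stood at 738 ± 48.5 CPM per kb (SD, n = 4) in DMSO day 2 and made up 48.9% of the summed level of the 10 genes. Anxa4, an annexin of secretory and absorptive epithelia, followed at 349 ± 8.40 CPM per kb and Anxa2, which forms a complex with S100a10 at the plasma membrane, at 222 ± 8.08. Anxa10, an annexin best known from stomach, came next in DMSO day 2 at 58.1 ± 4.48 CPM per kb and was below Anxa11, Anxa5 and Anxa1 in DMSO day 4 at 5.08 ± 2.19. Anxa6, whose core is a duplicated set of repeats, and Anxa8 were at the bottom in all groups, with 1.64 ± 0.106 and 5.69 ± 0.570 CPM per kb in DMSO day 2. The first place of Anxa13 and its share of 48.9% rest on the lengths used. In CPM, without division by length, Anxa4 lay above Anxa13 in DMSO day 2, with means of 1621.6 and 995.42. The share was not computed with other lengths.

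Neighbours in the lower part of the order often overlapped. In DMSO day 2 the libraries of Anxa3, Anxa1 and Anxa5 overlapped from each gene to the next, at 32.7 ± 2.80, 29.1 ± 5.07 and 28.5 ± 1.04 CPM per kb. In DMSO day 4 the same held for Anxa5, Anxa1, Anxa10 and Anxa3, at 6.37 ± 0.969, 5.66 ± 1.63, 5.08 ± 2.19 and 4.26 ± 1.34. Summed over the 10 genes, the level was 1510.5 ± 43.7 CPM per kb in DMSO day 2 and 1758 ± 60.1 in 4OHT day 2. At day 4 the sum was 790 ± 40.1 in DMSO and 1164 ± 169 in 4OHT. With the longest transcript of each gene in place of its summed exons, and levels averaged over the 4 groups, 43 of 45 pairs of genes kept their order. The 2 that did not both involved Anxa10. Within single groups other pairs changed order as well. In DMSO day 4, Anxa4 (460 CPM per kb of longest transcript) then lay above Anxa13 (413). In DMSO day 2, Anxa3 (74.6) then lay above Anxa11 (68.8).

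**Figure D1:**
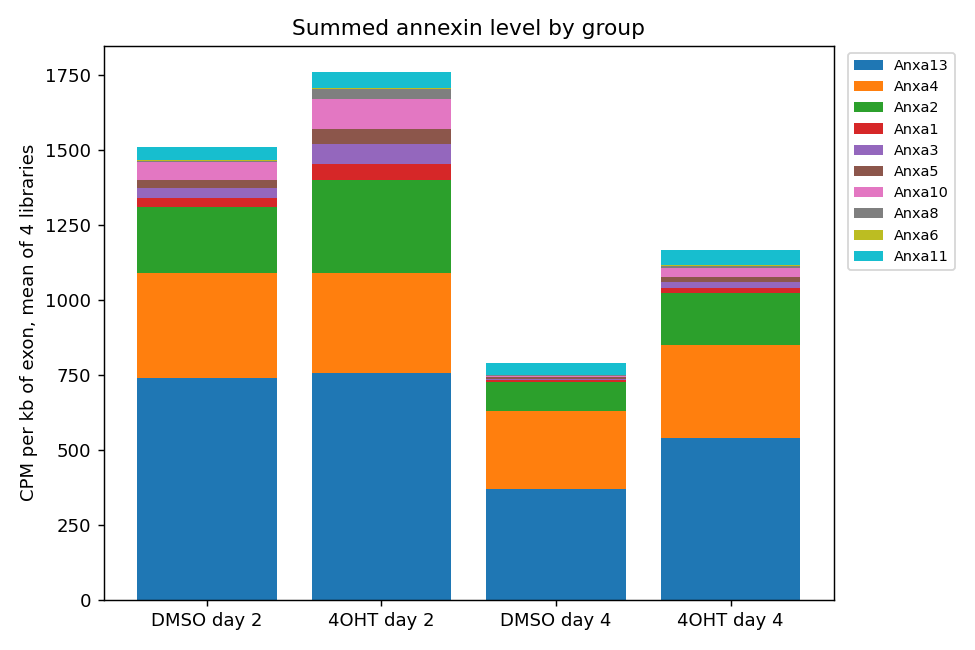
Stacked bars of the mean level per length (CPM per kb of exon, 4 libraries a group) of the 10 annexins in each group. Anxa13, Anxa4 and Anxa2 make up most of every bar, and the bar is tallest in 4OHT day 2 (1758) and shortest in DMSO day 4 (790).

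In 4OHT organoids most annexins were higher than in DMSO. By edgeR at an adjusted p below 0.05, 8 of 10 rose at day 2 and 9 of 10 at day 4, and 0 fell on either day. Of all genes tested, 31.1% were called in either direction at day 2 (16.9% higher) and 24.7% at day 4 (13.7% higher), and nothing is read from the comparison because the choice of genes used it. The median log2 fold change of the 10 was 0.78 at day 2, beside 0.00 over all genes tested, and 1.42 at day 4, beside -0.01. In bulk RNA, more cells of a type and more RNA per cell cannot be told apart.

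Anxa8 (chromosome 14, 34085981 to 34100571, plus strand, GRCm38), an annexin found in squamous and other stratified epithelia, had the largest fold change of the family on both days. Its 4 DMSO day 2 libraries held 10.3, 11.4, 9.37 and 11.7 CPM and its 4OHT day 2 libraries 53.4, 51.7, 63.7 and 63.1 CPM. The treated libraries lay far above the controls with no overlap, a log2 fold change of 2.44 ± 0.09 (SE), or 5.44-fold. At day 4 the DMSO libraries were down to 0.681, 0.522, 0.547 and 1.70 CPM, which rest on 36 to 113 reads each, and the 4OHT libraries held 12.9, 8.81, 14.999 and 23.1 CPM. Replicate 4 was the highest library in both day 4 groups, yet the lowest treated library was still above the highest control. The log2 fold change was 4.15 ± 0.42 (17.8-fold), and it ran from 3.87 without 4OHT day 4 replicate 4 to 4.67 without DMSO day 4 replicate 4.

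Anxa10 (chromosome 8, 62057042 to 62123150, minus strand) was the next largest by fold at day 4. In DMSO day 2 it measured 130.2, 130.9, 124 and 148 CPM, and in 4OHT day 2 219.7, 234, 259.6 and 229 CPM. At day 4 the values were 9.53, 8.39, 9.49 and 19.1 CPM in DMSO and 47.4, 36.7, 64.6 and 98.2 CPM in 4OHT. Treated and control libraries did not overlap on either day, and replicate 4 was again the highest of both day 4 groups. The log2 fold changes were 0.83 ± 0.07 at day 2 and 2.42 ± 0.36 at day 4. Without 4OHT day 4 replicate 4 the day 4 value was 2.10.

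Anxa3, Anxa5 and Anxa1 were higher in 4OHT on both days. Anxa3 (chromosome 5, 96793339 to 96845966, plus strand), a calcium-dependent phospholipid binder, held 117, 119.9, 107 and 132 CPM in DMSO day 2 and 224, 229.8, 264 and 278 CPM in 4OHT day 2. At day 4 it held 14.8, 12.99, 11.8 and 22.6 CPM in DMSO and 61.2, 47.4, 71.5 and 104 CPM in 4OHT. No libraries overlapped, and the log2 fold changes were 1.07 ± 0.08 and 2.20 ± 0.28.

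Anxa5 (chromosome 3, 36448923 to 36475894, minus strand) encodes the annexin that coats exposed phosphatidylserine and is used as a stain for dying cells. It measured 50.3, 50.9, 48.4 and 52.9 CPM in DMSO day 2 and 77.9, 82.1, 90.6 and 85.0 in 4OHT day 2. In the day 4 libraries it measured 11.8, 9.52, 10.5 and 13.5 CPM with DMSO and 32.1, 23.6, 32.6 and 51.2 with 4OHT. The coefficient of variation of the controls was 3.65% at day 2 and 15.2% at day 4. The treated libraries were higher throughout, with log2 fold changes of 0.74 ± 0.05 and 1.63 ± 0.21. The day 4 value was 1.39 without 4OHT day 4 replicate 4.

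Anxa1 (chromosome 19, 20373428 to 20390944, minus strand) encodes an annexin that restrains inflammation and promotes epithelial wound closure through formyl peptide receptors. The controls held 83.1, 84.0, 67.7 and 104 CPM at day 2 and 15.8, 15.1, 11.9 and 23.1 CPM at day 4. The treated libraries held 129, 131, 161 and 177 CPM at day 2 and 45.01, 32.6, 43.5 and 79.5 CPM at day 4. Its replicates were the most spread of the family in DMSO day 2 (coefficient of variation 17.4%), but the treated and control libraries of a day did not overlap. Its log2 fold changes were 0.83 ± 0.13 and 1.61 ± 0.29.

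**Figure D2:**
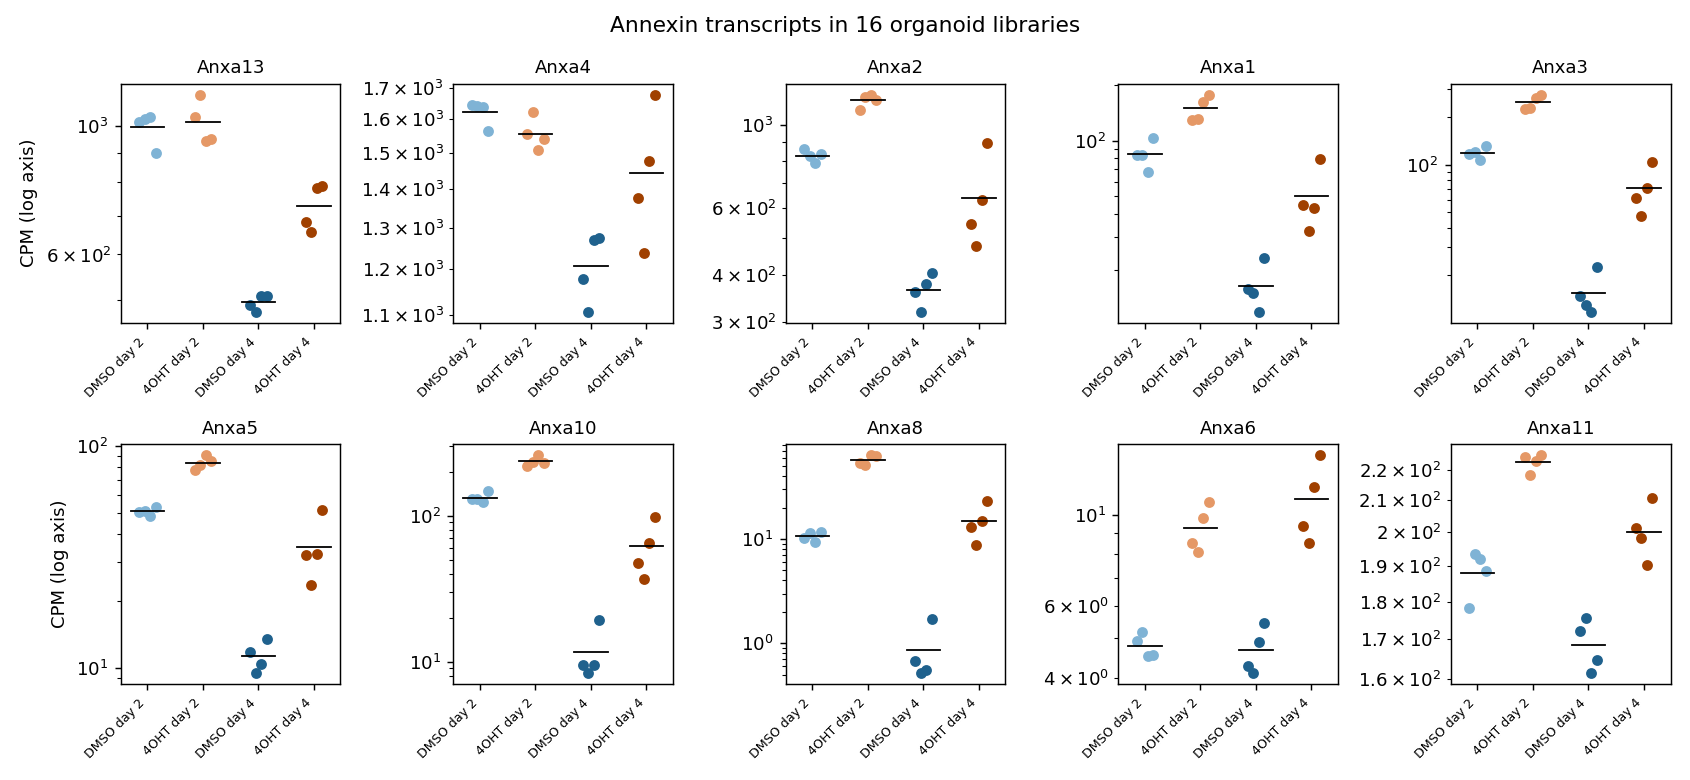
CPM of each annexin in every library (points, log axis, 4 libraries a group) with the group mean as a line. 4OHT lies above DMSO of the same day without overlap, except for Anxa13 and Anxa4 at day 2 and Anxa4 at day 4. How many of all genes show such separation was not computed.

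The abundant gut annexins changed less. Anxa2 (chromosome 9, 69453620 to 69491795, plus strand) held 862, 824, 789 and 835 CPM in DMSO day 2 against 1091, 1183, 1203 and 1166 in 4OHT day 2. Its day 4 values were 360.4, 319, 379 and 404 CPM in DMSO and 546, 478, 633 and 895 CPM in 4OHT. The groups stayed apart on both days, with 4OHT day 4 replicate 4 well above its group, and the log2 fold changes were 0.50 ± 0.05 and 0.81 ± 0.17.

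Anxa13 (chromosome 15, 58341471 to 58389244, minus strand) overlapped between the groups at day 2, with 1016, 1030.1, 1037 and 898 CPM in DMSO and 1038, 1135, 942 and 952 in 4OHT (log2 0.04 ± 0.07). By day 4 the groups had come apart, with 491, 477, 508 and 508 CPM in DMSO and 684, 656, 782 and 787 in 4OHT (log2 0.55 ± 0.07). GENCODE M21 lists this gene as a processed transcript, not as protein coding.

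Anxa4 (chromosome 6, 86736840 to 86793584, minus strand) did not pass the threshold on either day. It held 1645, 1640.2, 1637.5 and 1563 CPM in DMSO day 2 and 1555, 1623, 1507 and 1541 in 4OHT day 2, which overlap (log2 -0.05 ± 0.05). At day 4 the DMSO libraries held 1179, 1106, 1268 and 1274.5 CPM and the 4OHT libraries 1376, 1238, 1477 and 1678. Replicate by replicate the treated library was the higher one each time, but 4OHT replicate 2 lay within the control range. The log2 fold change was 0.26 ± 0.09. It passed with DESeq2 and without 4OHT day 4 replicate 2 (log2 0.33). With the replicate number as a block it passed too (log2 0.25), and then 10 of 10 annexins were called higher, where 45% of all genes were called in either direction.

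Anxa6 and Anxa11 differed in size of change. Anxa6 (chromosome 11, 54979108 to 55033445, minus strand), a membrane organizer at the plasma membrane and endosomes, held 4.92, 5.17, 4.51 and 4.56 CPM in DMSO day 2 and 8.52, 8.13, 9.78 and 10.75 in 4OHT day 2. At day 4 it held 4.28, 4.12, 4.90 and 5.43 CPM in DMSO and 9.40, 8.55, 11.7 and 13.9 in 4OHT. Its control libraries of the 2 days overlapped and the treated libraries were all higher, by log2 0.96 ± 0.09 and 1.22 ± 0.16.

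Anxa11 (chromosome 14, 25842156 to 25886804, plus strand), which tethers RNA granules to lysosomes, changed least of the called genes. It measured 178, 194, 192 and 189 CPM in DMSO day 2, 225, 218, 223 and 225 in 4OHT day 2, 172, 176, 162 and 165 in DMSO day 4, and 201, 198, 190.2 and 211 in 4OHT day 4. The treated libraries were higher without overlap, by log2 0.25 ± 0.04 at day 2 and 0.25 ± 0.05 at day 4. Of the 50-base words in its transcripts 16.2% also occur in other genes (Anxa11os, Gm2260 and Gm2274), so some of its reads may be shared. For the other 9 genes this share was at most 1.79%.

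**Figure D3:**
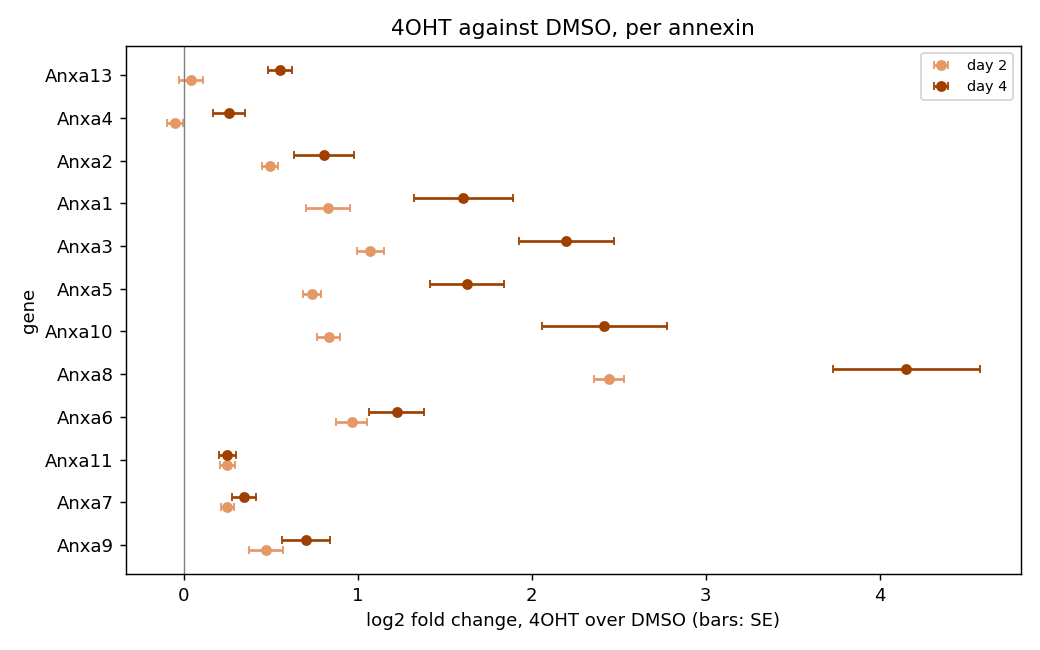
Log2 fold change of 4OHT over DMSO at day 2 and day 4 for the 10 annexins and for Anxa7 and Anxa9 (points, edgeR estimates from 4 against 4 libraries, bars are SE). Anxa8 lies farthest right on both days (2.44 and 4.15), and Anxa4 and Anxa13 lie at 0 within their SE or close to it at day 2.

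Promoter windows of 7 of the 10 genes were found among the RefSeq windows for GRCm38.p6, each running from 250 bases before a transcription start to 50 bases after it. Short motifs were searched on both strands of these windows. The AP-1 motif TGANTCA occurred in the windows of Anxa10 and Anxa2, and in 7.81% of all 32851 windows. Anxa10 had it at positions -180 to -174 and -16 to -10, counted from the start, and Anxa2 at -95 to -89. TATAAA, the letters of the TATA box, occurred at -32 to -27 in Anxa10 and Anxa1 and at -17 to -12 in Anxa2. It occurred in 13.6% of all windows. The TEAD motif GGAATG occurred in Anxa1 on the opposite strand (CATTCC as printed), and in 14.7% of all windows. The HNF4 motifs CAAAGTCCA and CAAAGNNCA were in none of the 8 windows of these 7 genes, and in 0.475% and 6.36% of all windows. A match is a description of these letters and not of binding. The upstream parts of Anxa10, Anxa2 and Anxa1, which hold the matches, and of Anxa8, which had the largest fold change and no match, are shown 5′ to 3′ on the gene's strand with the motif matches in capitals. They lie at chr8:62123194-62123443 (minus), chr9:69453433-69453682 (plus), chr19:20390672-20390921 (minus) and chr14:34085729-34085978 (plus). They are upstream of the RefSeq starts, which differ from the GENCODE M21 gene positions given above. The Anxa1 part lies wholly within the GENCODE gene, and the Anxa2 part lies partly within it.
Anxa10: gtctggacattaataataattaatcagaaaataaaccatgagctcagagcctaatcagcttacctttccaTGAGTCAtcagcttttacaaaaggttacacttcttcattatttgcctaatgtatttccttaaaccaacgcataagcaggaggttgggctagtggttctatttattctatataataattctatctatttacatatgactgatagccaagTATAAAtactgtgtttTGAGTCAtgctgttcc
Anxa2: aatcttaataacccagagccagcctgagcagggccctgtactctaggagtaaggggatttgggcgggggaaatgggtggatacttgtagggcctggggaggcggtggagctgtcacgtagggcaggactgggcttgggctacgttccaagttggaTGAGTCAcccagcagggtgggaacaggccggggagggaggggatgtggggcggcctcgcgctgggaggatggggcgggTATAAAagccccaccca
Anxa1: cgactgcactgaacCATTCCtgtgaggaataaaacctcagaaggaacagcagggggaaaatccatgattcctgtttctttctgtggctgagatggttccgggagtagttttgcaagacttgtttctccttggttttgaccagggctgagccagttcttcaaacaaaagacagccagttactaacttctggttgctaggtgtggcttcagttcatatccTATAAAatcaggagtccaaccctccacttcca
Anxa8: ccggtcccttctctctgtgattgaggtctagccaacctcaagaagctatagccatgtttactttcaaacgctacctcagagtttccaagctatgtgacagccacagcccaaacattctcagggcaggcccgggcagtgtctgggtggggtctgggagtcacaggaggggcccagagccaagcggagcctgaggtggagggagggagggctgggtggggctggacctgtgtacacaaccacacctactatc
The Anxa10 window is rich in A and T, with 33.6% G or C, against 58.0% for Anxa8, 62.4% for Anxa2, 46.0% for Anxa1 and a median of 52.4% over all windows.

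From day 2 to day 4 most annexins fell in both treatments. In DMSO, 9 of 10 fell and 0 rose by edgeR at an adjusted p below 0.05, where 53.5% of all genes were called in either direction (28.7% higher, 24.8% lower), and the median log2 fold change was -1.66, beside 0.03 over all genes tested. In 4OHT, 8 of 10 fell and 0 rose, where 49.4% of all genes were called (25.9% higher, 23.5% lower), with a median of -1.06 beside 0.01. These comparisons use the same libraries as those of treatment, so the values are not independent of them. The family was picked with the treatment values known, so the adjusted p given for time are a description and not independent evidence.

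Anxa8 and Anxa10 fell most steeply in DMSO. Anxa8 fell by 3.66 ± 0.29 on the log2 scale (SE; edgeR adjusted p = 4.04e-06), which left 8.07% of its day 2 level in CPM. Anxa10 fell by 3.51 ± 0.26 (edgeR adjusted p = 8.68e-06) and kept 8.74%. Anxa3 fell by 2.93 ± 0.19 (edgeR adjusted p = 1.45e-06), Anxa1 fell by 2.35 ± 0.20 (edgeR adjusted p = 9.52e-06) and Anxa5 fell by 2.15 ± 0.09 (edgeR adjusted p = 4.06e-09). In 4OHT these 5 genes also fell, with log2 fold changes of -1.95 ± 0.25 for Anxa8, -1.93 ± 0.27 for Anxa10, -1.802 ± 0.213 for Anxa3, -1.57 ± 0.25 for Anxa1 and -1.26 ± 0.20 for Anxa5, and edgeR adjusted p between 0.000189 and 0.00108.

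Falls of the abundant genes were shallower. Anxa2 fell by 1.16 ± 0.07 in DMSO (edgeR adjusted p = 4.43e-08) and by 0.86 ± 0.16 in 4OHT (edgeR adjusted p = 0.00196). Anxa13 fell by 0.99 ± 0.06 in DMSO (edgeR adjusted p = 4.08e-08) and by 0.48 ± 0.08 in 4OHT (edgeR adjusted p = 0.000641). Anxa4 fell by 0.41 ± 0.06 in DMSO (edgeR adjusted p = 9.29e-05) and measured log2 -0.10 ± 0.08 in 4OHT (edgeR adjusted p = 0.315). The latter passed without 4OHT day 4 replicate 4 (log2 -0.18, edgeR adjusted p = 0.0317).

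Anxa11 and Anxa6 stood at the other end. Anxa11 fell by 0.14 ± 0.05 in DMSO (edgeR adjusted p = 0.0241) and by 0.15 ± 0.04 in 4OHT (edgeR adjusted p = 0.0163). These small calls were lost without DMSO day 2 replicate 2 (edgeR adjusted p = 0.0528), DMSO day 4 replicate 3 (0.0833) or 4OHT day 4 replicate 3 (0.0533). Anxa6 did not pass in either treatment (log2 -0.02 ± 0.10 in DMSO, edgeR adjusted p = 0.864, and 0.24 ± 0.15 in 4OHT, edgeR adjusted p = 0.211). With the replicate block Anxa6 passed in 4OHT (log2 0.22, edgeR adjusted p = 0.0302), where 49.9% of genes were called, though replicate numbers did not pair libraries across days.

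**Figure D4:**
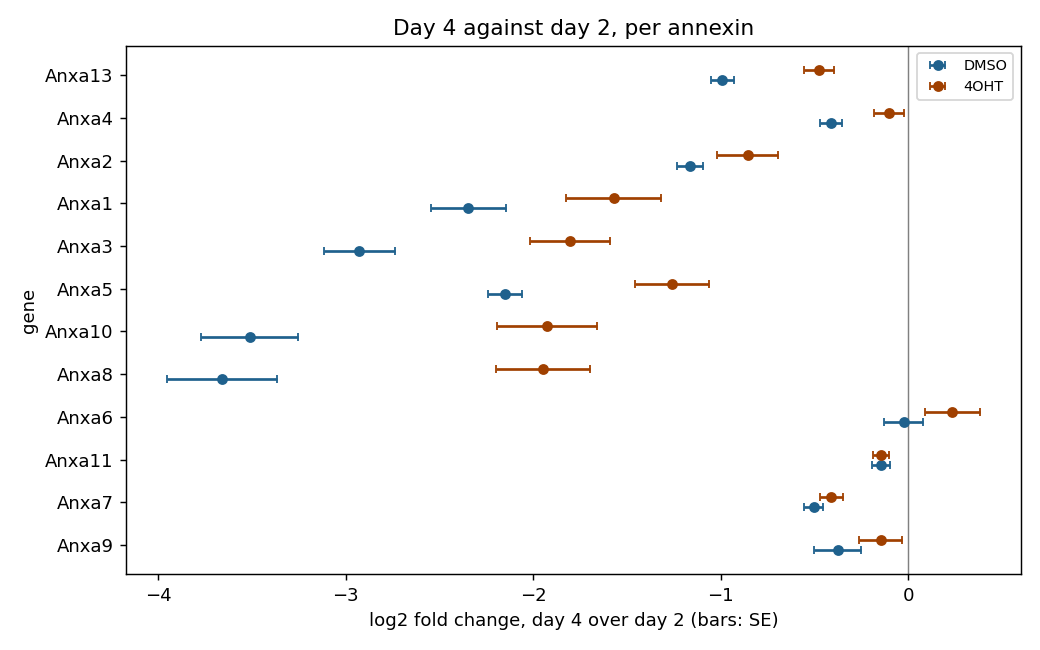
Log2 fold change from day 2 to day 4 in DMSO and in 4OHT for the 10 annexins and for Anxa7 and Anxa9 (points, edgeR estimates from 4 against 4 libraries, bars are SE). Most points lie left of 0, and for Anxa8 and Anxa10 the DMSO points (-3.66 and -3.51) lie farther left than the 4OHT points (-1.95 and -1.93).

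With a fall in both treatments and a higher level in 4OHT, the treated organoids of day 4 stood between the control groups for several genes. As a share of the DMSO day 2 mean, 4OHT day 4 measured 59.3% for Anxa1, 77.1% for Anxa2, 59.8% for Anxa3, 68.9% for Anxa5, 46.4% for Anxa10 and 73.0% for Anxa13. Its libraries lay below all DMSO day 2 libraries for Anxa3, Anxa10 and Anxa13, and overlapped with them for Anxa1, Anxa2 and Anxa5. Anxa6 stood at 227% of the DMSO day 2 mean, with all 4 libraries above it, and Anxa8 at 139.8%, with overlapping libraries.

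The fold change of day 4 minus that of day 2 was fitted over all 16 libraries. It is made from the treatment values known when the family was picked, so it too is a description, given without p-values. It was past the threshold for 1 of the 10 annexins, Anxa13 (log2 0.52 ± 0.10), where 1.68% of all genes were called in either direction and 1.2% higher. For Anxa8 it was log2 1.73 ± 0.44, for Anxa10 1.59 ± 0.39, for Anxa3 1.13 ± 0.31 and for Anxa5 0.90 ± 0.24, none of them past the threshold. Anxa11 measured log2 0.005 ± 0.062. Same-numbered libraries of day 4 deviated together. With a replicate block over all libraries 6 of 10 annexins passed, adding Anxa1, Anxa3, Anxa5, Anxa8 and Anxa10 to Anxa13, where 5.36% of genes passed. With a block per replicate number and day 7 passed, adding Anxa4 as well, where 11.1% of genes did. The latter fit was chosen after the data were seen. DESeq2 called 5 annexins, where 5.1% of genes passed, and a filter of 1 CPM in 4 libraries also called 5, where 3.08% did. The count was 6 without 4OHT day 4 replicate 2 (2.41% of genes), 3 without 4OHT day 4 replicate 4 (2.87%) and 4 without DMSO day 4 replicate 4 (1.13%).

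The spread among the day 4 libraries was shared by most of the family. In 4OHT day 4, replicate 4 was the highest library for 10 of 10 annexins and replicate 2 the lowest for 9 of 10. In DMSO day 4, replicate 4 was the highest for 9 of 10 and replicate 2 the lowest for 7. How many of all genes show these ranks was not counted. The spread was not confined to the family, as 4OHT day 4 replicate 4 also stood apart on the second principal component (30.2 against 10.1 to 19.7 in its group). For Anxa10, 4OHT replicate 4 lay 1.02 above the mean of the other 3 libraries on the log2 scale, and DMSO replicate 4 lay 1.07 above. For Anxa8 these values were 0.95 and 1.55. Anxa11 and Anxa13 spread least, with 4OHT replicate 4 at 0.10 and 0.16. Without 4OHT day 4 replicate 4 the same 9 annexins were called higher at day 4, in a fit that called 22.6% of all genes in either direction.

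**Figure D5:**
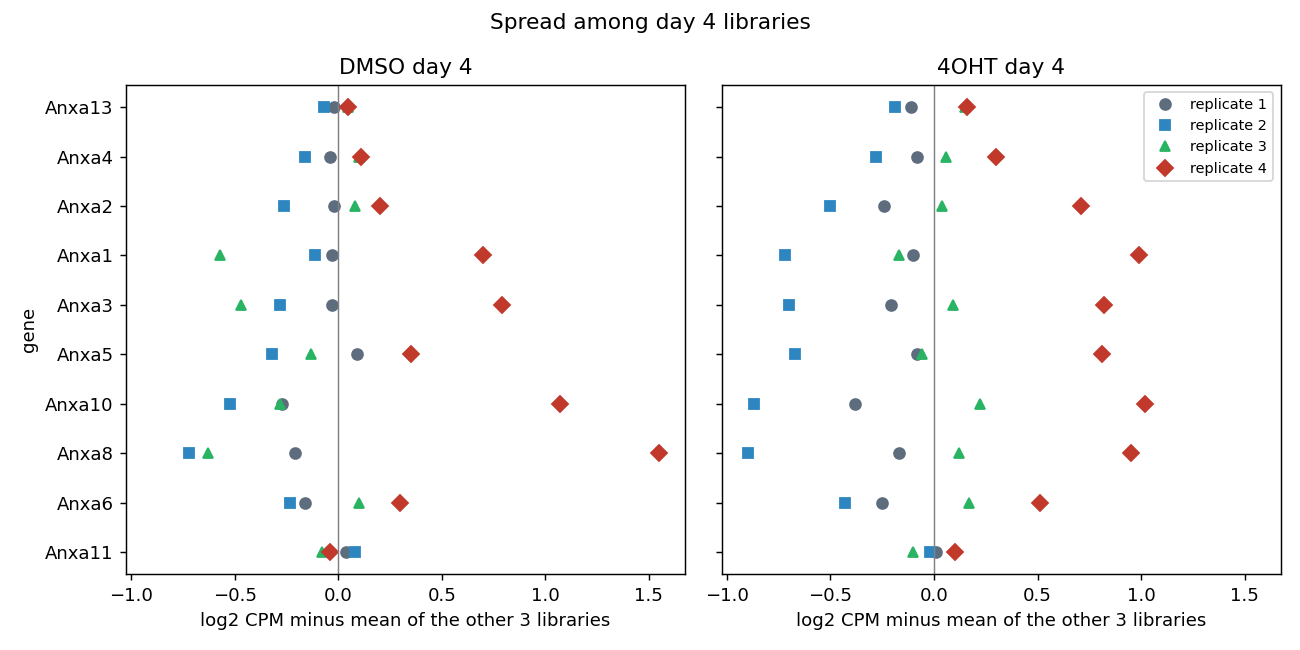
Log2 CPM of each day 4 library minus the mean of the other 3 libraries of its group, for DMSO (left) and 4OHT (right), with a marker shape per replicate number. Replicate 4 (red diamonds) lies to the right in both panels for all genes except Anxa11 in DMSO.

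Across all 16 libraries, Anxa1, Anxa2, Anxa3, Anxa5, Anxa8 and Anxa10, a set picked after their values were seen, were closely correlated with each other (Pearson r of log2 CPM 0.94 to 0.996 over 15 pairs). The libraries fall into 4 groups, so such r values mostly restate the group differences. Taken as deviations from the group means, the same 15 pairs gave r between 0.76 and 0.98. Anxa6, whose r with these 6 was 0.46 to 0.70 across libraries, had 0.73 to 0.85 for deviations. Anxa11 showed the reverse, with 0.81 to 0.93 across libraries and 0.03 to 0.33 for deviations. So did Anxa13, with 0.85 to 0.96 across libraries and 0.07 to 0.54 for deviations. Anxa4 had 0.77 to 0.89 across libraries and 0.55 to 0.92 for deviations. These values describe libraries that were scaled together, and the labels do not say which of them share a preparation.

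Likeness was measured as Pearson r of log2 CPM against the 9780 genes whose average was over 3, and the 3 most like each annexin over the 16 libraries were named. Anxa8 was most like Krt4, Sptssb and Ildr1 (r 0.992 to 0.993), and Anxa10 most like S100a6, Lgals3 and Oxct1 (r 0.994 to 0.996). Anxa3 was most like Arhgap40, Msln and Anxa5, Anxa1 like Arhgap40, Ctgf and Anxa3, and Anxa5 like Lgals3, Slc39a4 and S100a11 (r 0.993 to 0.997). For Anxa2 they were Acot9, Serpinb6a and Dstn, and for Anxa13 Mpp1, Batf2 and Mall (r 0.987 to 0.995). Likeness was lower for Anxa11 (Pcsk6, Pkp4 and Magi1, r 0.982 to 0.984), Anxa4 (Pak1, Vmp1 and Pgpep1, r 0.961 to 0.972) and Anxa6 (Aldh3b2, Tusc3 and Kdelr3, r 0.958 to 0.962).

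The family's other listed annexins also rose with 4OHT on both days. Anxa7, which takes part in membrane fusion, measured 156 to 172 CPM in DMSO day 2 and 189 to 198 in 4OHT day 2 (log2 0.25 ± 0.04). At day 4 it measured 109.6 to 121 CPM in DMSO and 131 to 164 in 4OHT (log2 0.35 ± 0.07). Anxa9 had log2 fold changes of 0.47 ± 0.10 and 0.70 ± 0.14 at 1.62 to 3.66 CPM. Exons of Anxa9 overlap those of Mindy1 on the opposite strand, a gene with 53309 reads summed over the day 2 libraries, and the strand setting of the counts is not given in the sources used here, so the Anxa9 values are uncertain.

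S100 proteins are calcium-binding partners that join annexins into larger complexes. Of 13 tested at day 2, 8 rose and 2 fell (median log2 0.65), and of 10 tested at day 4, 8 rose and 0 fell (median 0.90). Over all genes tested 16.9% rose and 14.3% fell at day 2, and 13.7% rose and 11.1% fell at day 4. S100a11, the partner of Anxa1, rose at day 2 from 305 ± 22.2 CPM (SD, n = 4) in DMSO to 505 ± 29.4 in 4OHT, a log2 change of 0.73 ± 0.06, and at day 4 from 90.5 ± 9.75 to 214 ± 59.7 (log2 1.245 ± 0.170). S100a6 rose from 603 ± 35.9 to 979 ± 40.2 CPM (log2 0.71 ± 0.05) and from 91.5 ± 18.8 to 295 ± 96.6 CPM (log2 1.69 ± 0.23). S100a14 rose by log2 0.96 ± 0.05 and 1.246 ± 0.184. S100a3, at under 1 CPM, rose by log2 1.29 ± 0.23 at day 2, and S100b, also under 1 CPM, fell by 1.89 ± 0.41. S100a10, the partner of Anxa2, is named beyond the rule after its values were seen. It measured 236 ± 15.1 and 252 ± 12.1 CPM at day 2 (log2 0.10 ± 0.05) and 116 ± 12.8 and 153 ± 39.8 at day 4 (log2 0.41 ± 0.16), and passed at neither day. With the replicate block, where 45% of all genes were called at day 4, S100a10 rose and S100g fell, so that 9 of the list rose and 1 fell.

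The Anxa2 complex is known to promote plasminogen activation at the cell surface. Of 6 tested genes of this pathway 4 rose and 1 fell at day 2 (median log2 1.04), and of 5 tested 2 rose and 0 fell at day 4 (median 1.10). Beside these counts, 16.9% of all genes tested rose and 14.3% fell at day 2, and 13.7% rose and 11.1% fell at day 4. Plau, the urokinase gene, rose by log2 2.32 ± 0.13 and 3.78 ± 0.50, with means of 1.16 ± 0.0938 and 5.76 ± 1.001 CPM in DMSO and 4OHT of day 2, and 0.119 ± 0.0645 and 1.63 ± 0.905 CPM in those of day 4. Plaur, its receptor, rose by log2 1.06 ± 0.10 and 1.56 ± 0.22. Plgrkt, a plasminogen receptor, fell by 0.56 ± 0.07 at day 2 and measured log2 -0.065 ± 0.087 at day 4. Without 4OHT day 4 replicate 4, 3 genes rose at day 4, the third being Plat, named after its values were seen. That fit called 22.6% of all genes in either direction.

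Of 17 tested membrane repair genes, 9 rose and 1 fell at day 2 (median log2 0.13) and 8 rose and 0 fell at day 4 (median 0.20). The shares of all genes called were 31.1% at day 2 (16.9% higher) and 24.7% at day 4 (13.7% higher). With the replicate block 14 rose and 1 fell at day 4, in a fit that called 45% of all genes. Myof, a ferlin of membrane fusion, rose from 37.5 ± 4.17 to 99.0 ± 6.72 CPM (log2 1.41 ± 0.08) and from 9.49 ± 1.52 to 40.1 ± 7.85 CPM (log2 2.08 ± 0.15). Cav2, a caveolin, rose by log2 2.20 ± 0.12 and 2.83 ± 0.24, and Ehd2, a caveolar ATPase, by log2 2.16 ± 0.09 and 2.11 ± 0.28. Those with the highest CPM were Pdcd6ip, which recruits the ESCRT machinery (log2 0.28 ± 0.04 and 0.26 ± 0.06), Ahnak, a scaffold bound by Anxa2 and S100a10 (log2 1.40 ± 0.12 and 1.06 ± 0.13), and Chmp4c, an ESCRT subunit that fell by 0.22 ± 0.05 at day 2 and measured log2 -0.18 ± 0.06 at day 4.

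Copines, which bind phospholipids through calcium as well but by C2 domains, rose in 3 of 5 tested cases at day 2 and 2 of 5 at day 4, with 0 falls. Of all genes, 31.1% were called at day 2 (16.9% higher) and 24.7% at day 4 (13.7% higher). Cpne3 rose by log2 0.52 ± 0.09 and 0.36 ± 0.06 and Cpne5 by log2 0.77 ± 0.21 and 0.72 ± 0.21, while Cpne8 rose at day 2 (log2 1.13 ± 0.25), and Cpne2 passed at neither day. Cpne5 did not pass at day 4 without 4OHT day 4 replicate 4. None of the 4 formyl peptide receptor genes looked for is listed in the tables. Of the cytosolic phospholipase A2 genes, whose activity Anxa1 is known to inhibit, 1 of 4 tested rose at day 2 (Pla2g4f, log2 1.09 ± 0.27, under 1 CPM) and 1 of 3 at day 4 (Pla2g4a, log2 0.20 ± 0.06). Beside these, 16.9% of all genes tested rose at day 2 and 13.7% at day 4, and nothing is read from such small counts. The Pla2g4a call was lost without 4OHT day 4 replicate 4.

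Markers of other epithelia and lineages differed between the groups as well, some in the direction of the annexins and some in the other. The 12 markers of intestinal epithelium summed to 18669 to 21247 CPM in DMSO day 2 and 22865 to 24636 in 4OHT day 2. At day 4 they summed to 11690 to 12262 and 14723 to 17133, so these sums moved as most annexins did. Of the 12, 4 rose and 2 fell at day 2, where 16.9% of all genes tested rose and 14.3% fell. At day 4, 6 rose and 0 fell, where 13.7% rose and 11.1% fell. The summed level of the 10 listed of 11 gastric and squamous markers was 29.3 to 37.9 CPM in DMSO day 2, 203 to 256 in 4OHT day 2, 3.66 to 7.81 in DMSO day 4 and 36.2 to 129 in 4OHT day 4. Of this list Muc6, Gkn2, Krt13, Krt14, Trp63 and Muc5ac stayed under 1 CPM in all groups, Muc5ac not being listed. The 7 goblet cell markers summed to 4851 to 5696 CPM in DMSO day 2 and 7409.8 to 9494 in 4OHT day 2, and to 3923 to 5164 and 7294 to 9219 at day 4. The 5 crypt base stem cell markers summed to 1442 to 1665 CPM and 918 to 1047 at day 2, and to 3562 to 3875 and 2437 to 2905 at day 4. The stem cell sums were thus lower in 4OHT and higher at day 4, the reverse of most annexins. Of 8 absorptive enterocyte markers 7 fell and 0 rose at day 2, where 14.3% of all genes tested fell and 16.9% rose. Their sums were 5206 to 7121 CPM in DMSO day 2 and 3604 to 5166 in 4OHT day 2, which do not overlap. At day 4 their sums overlapped, at 8216 to 9072 and 7538 to 10356 CPM. The 6 Paneth cell markers summed to 1442 to 1788 CPM in DMSO day 2 and 1199 to 1342 in 4OHT day 2, and to 1805 to 2236 and 1699.5 to 1908 at day 4. Sums of enteroendocrine and tuft cell markers overlapped between the treatments on both days. The part of these markers in the annexin values was not tested.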

How the data were processed

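The deposited tables, 1 per day, hold raw read counts per gene that the authors made; STAR 2.4.0f1, bcl2fastq 1.8.4 and GRCm38 are named in the submitters' processing notes, while for the counting tool, its annotation and whether it used strand, nothing is stated in the labels. The tables list 20790 and 20658 genes, each with a sum of 10 reads or more across 8 libraries. The authors' normalized values (deposited as whole numbers, treated as a score), log2 fold changes and p-values in the deposited tables were not used. At day 4, 14 symbols that had been turned into dates were restored.

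Counts were tested with edgeR 4.0.16 (TMM scaling, filterByExpr, robust quasi-likelihood fit, Benjamini-Hochberg adjustment over all genes, threshold 0.05), fitted on the libraries compared. Alternatives were DESeq2 1.42.0, its size factors, other filters, a stricter threshold of 0.01, a replicate block and each library left out. CPM were scaled across all 16 libraries, so a ratio of CPM can differ slightly from a fitted fold. Lengths, positions and biotypes come from GENCODE M21. The fits were also run on simulated counts, drawn independently for each library and so without the shared deviation of day 4 libraries described below. No conclusion is drawn from that run here. All 24 pairs of libraries within groups differed beyond counting noise.

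Same-numbered DMSO and 4OHT libraries deviated together at day 4 (correlations 0.64 to 0.81, 8 of 8 libraries best with their own number) but not at day 2 (-0.11 to 0.48, 2 of 8). Across days the correlations were 0.07 to 0.18 in DMSO and -0.22 to 0.39 in 4OHT. The labels name no shared batch, so this pairing comes from the data.

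The annexins and all gene lists were chosen with earlier results of these data known. Named beside the 10 annexins, Anxa7, Anxa9 and Hnf4a were, from each list, the up to 3 called genes with the largest fold change at each day and the 2 with the highest level. A gene that this rule picks is not reported here.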

Additional observations from a re-analysis of the deposited data

Results flagged for a closer look

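In DMSO day 2, replicate 4 stood below the other 3 libraries for Anxa4 (1563 CPM against 1637.5 to 1645) and for Anxa13 (898 CPM against 1016 to 1037), by Dixon's test of the gap relative to the range. The gap for Anxa4 is small, log2 -0.07, beside 3 libraries that lie very close together. In DMSO day 4, replicate 4 stood above the others for Anxa10 (19.1 CPM against 8.39 to 9.53). These are 3 of 40 groups of 4 libraries tested, where chance flags about 1 group in 20.

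The fold change of Anxa13 with 4OHT was 0.04 at day 2 and 0.55 at day 4 (log2), and the fitted difference of 0.52 was past the threshold of 0.05 on the edgeR adjusted p but not past 0.01. It rests on the treatment values known when the family was picked, so it is not independent evidence.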

How the results depend on the processing

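The number of annexins called changed by less than 1.5 times under every alternative run for the comparisons of treatment at each day and of time in each treatment. The fit of a difference between days was the exception. It called 1 annexin as reported, 5 with DESeq2, 5 with a filter of 1 CPM in 4 libraries, 6 with the replicate block, 7 with the replicate block per replicate number and day, 0 at an adjusted p below 0.01, and between 1 and 6 with each library left out. The cause was not tested.

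Directions changed only for values near 0 that passed no threshold, each with 1 library left out. With each library left out, the log2 value of Anxa13 at day 2 ran from -0.021 to 0.063, that of Anxa6 over time in DMSO from -0.12 to 0.018, and that of Anxa11 in the difference between days from -0.017 to 0.037. Outside the difference between days, the replicate block changed the call of Anxa4 at day 4 (log2 0.25) and of Anxa6 over time in 4OHT (log2 0.22, edgeR adjusted p = 0.0302), and of no other annexin.

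Depth limited Anxa8 in DMSO day 4, at 36 to 113 reads a library. CPM are relative to each library's total.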
